A study of Mus musculus with 20 samples.

Results

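The mRNA levels of 10 C-type lectin receptors were compared in macrophages of the cranial dura mater between mice given a systemic challenge with bacterial lipopolysaccharide (LPS) and other mice given PBS. The genes were Clec4e, Clec4d, Clec4n, Clec7a, Clec10a, Clec4a1, Clec4a2, Clec4a3, Clec12a and Clec5a, chosen by name, and all 10 were found among the 33243 genes of the count table and among the 16632 genes tested. Dural CNS-associated macrophages (dCAMs) were sorted as CD45int CD11b+ CD206int-high cells from 10 mice and measured by bulk RNA-seq. Each dura gave 1 library of tdT+ and 1 of tdT- cells, for 20 libraries in 4 groups of 5.

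All mice carried the same alleles, Ccr2creERT2/+ and R26tdT/tdT, in which tamoxifen turns on the red fluorescent protein tdTomato (tdT) in cells that use the Ccr2 promoter at that time. All mice also had the same history. Macrophages were depleted by gavage with the CSF1R inhibitor BLZ945, 200 mg per kg body weight a day over 7 days, and tamoxifen (2 mg per day) was given on the final day of gavage and at +2 and +4 days. The groups differed in the injection given 8 weeks after gavage, which was LPS at 2.5 mg per kg in the LPS mice and PBS in the CTL mice, and in the tdT label of the sorted cells. Tissue was taken 12 h after the injection. A tdT+ cell thus descends from a cell with an active Ccr2 promoter around the time of repopulation, whereas a tdT- cell may descend from a surviving macrophage or from a precursor that escaped labeling. Every group had been depleted, so a dura that was never depleted is not part of the comparison. The labels give no age of the mice.

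C-type lectin receptors are membrane proteins with which myeloid cells bind sugars, glycolipids and ligands of dying cells. Activating members signal through the tyrosine kinase Syk and the adaptor Card9, either from a motif of their own or through partner chains such as the Fc receptor gamma chain (Fcer1g) and DAP12 (Tyrobp), and inhibitory members recruit phosphatases. Macrophages at tissue borders are known to carry several of them.

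Total counts were 6017650 to 12208203 in the 10 CTL libraries and 12073566 to 18925908 in the 10 LPS libraries, and the ranges overlap at 1 CTL library. Genes reaching 10 counts numbered 6671 to 9365 per library among tdT- CTL, 10024 to 11032 among tdT+ CTL and 10930 to 11987 among all LPS libraries. The tdT- CTL libraries of mice 174 and 179 held the fewest such genes (6671 and 6778). Results of the 10 receptors that change without them are given both ways. For the other genes named, the dependence on these libraries was not tested. Levels are given as CPM, the counts of a gene scaled by TMM to a common library total. Values are listed in the order of CTL mice 174, 175, 177, 178 and 179 and of LPS mice 54, 56, 59, 60 and 61. Log2 fold changes come with their SE from the joint edgeR fit of the 20 libraries. A call needed more than a doubling or halving (log2 fold change past 1 or -1) at an adjusted p below 0.05 by the method of Benjamini and Hochberg, and rose or fell is written of called genes. Levels of at most 3 counts in a library are called the floor. The mice were separate animals, but no label gives a date or batch of the libraries.

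Against CTL, 2 of the 10 receptors rose and 5 fell in tdT- dCAMs, and 2 rose and 4 fell in tdT+ dCAMs. The 7 calls in tdT- dCAMs became 4 with limma-voom quality weights and 4 with the libraries of the comparison alone, whereas the 6 in tdT+ dCAMs remained 6 in number under each alternative. Among all genes tested 7.2% rose and 4.27% fell in tdT- dCAMs, and 3.37% rose and 2.52% fell in tdT+ dCAMs. Clec4e and Clec4d rose in both populations, and Clec4n, Clec7a, Clec10a and Clec12a fell in both. Clec4a2 fell in tdT- dCAMs and was not called in tdT+ dCAMs, and its LPS effect was not shown to differ between the populations (difference 0.36 on the log2 scale, 95% interval -0.49 to 1.20). The median log2 fold change was -0.34 for the receptors and 0.02 for all genes in tdT- dCAMs, and -0.18 and 0.01 in tdT+ dCAMs. The libraries of both LPS comparisons came from the same 10 mice, so the populations are not independent of each other.

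In tdT- dCAMs the ranges of the 5 LPS and the 5 CTL libraries were separate for 3 receptors that were higher and 3 that were lower, where 9.32% and 3.31% of all genes were so separated. In tdT+ dCAMs it was 3 higher and 5 lower, against 10.6% and 7.19% of all genes. In bulk samples fewer cells that express a gene and less RNA per cell cannot be told apart.

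**Figure D1:**
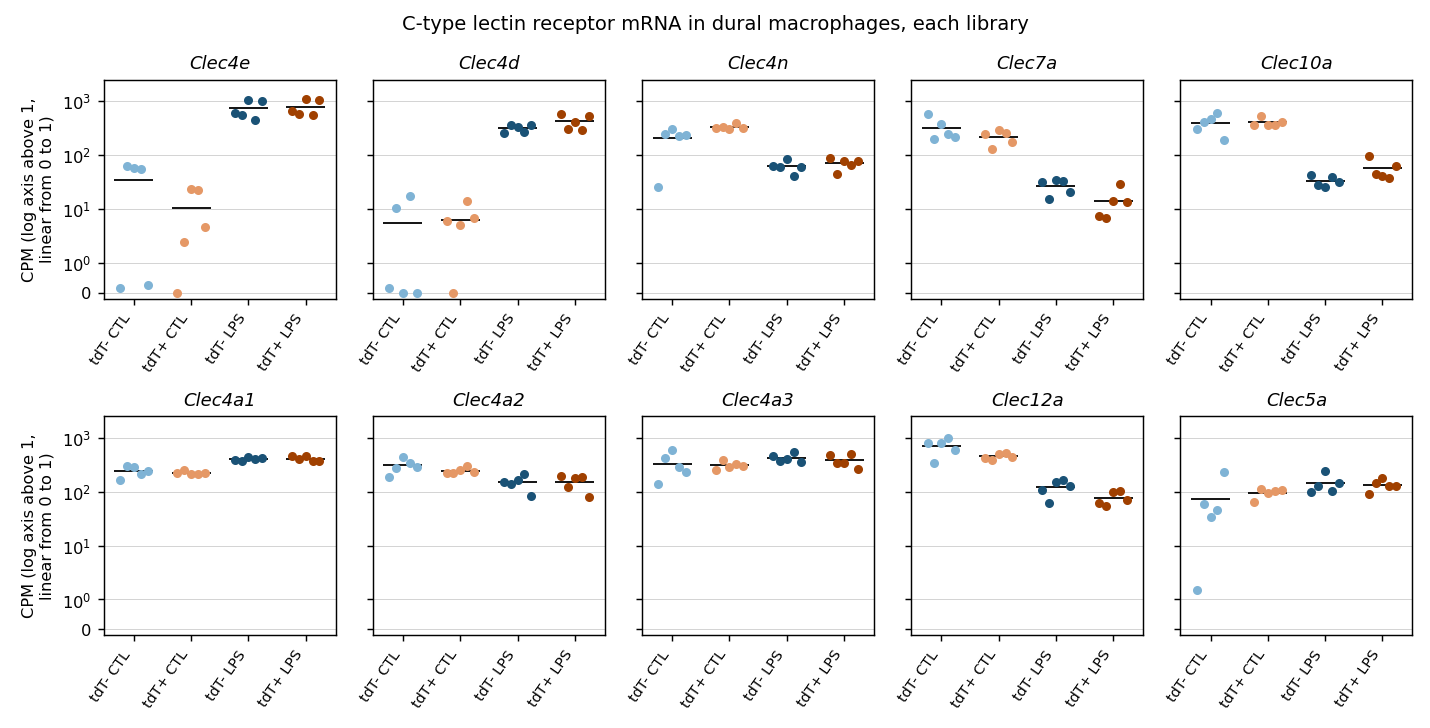
Level of each receptor mRNA in the 20 libraries, as CPM on an axis that is logarithmic above 1 and linear from 0 to 1. Points are libraries, 5 per group, and horizontal lines are group means; the LPS libraries of Clec4e and Clec4d all lie above their CTL libraries, and those of Clec7a, Clec10a and Clec12a all lie below.

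Clec4e encodes Mincle, a receptor for mycobacterial cord factor and for the nuclear protein Sap130 released by dying cells, which signals through the Fc receptor gamma chain. It lies on the minus strand of chromosome 6 (GRCm38, 123281789 to 123289870). Clec4e stood at 0.152, 61.4, 56.8, 55.8 and 0.262 CPM in tdT- CTL libraries and at 594.3, 563.5, 1061, 448.5 and 1024 CPM in tdT- LPS libraries. In tdT+ libraries it stood at 0, 2.44, 23.2, 22.7 and 4.60 CPM in CTL mice and at 654.7, 585.3, 1115, 547.7 and 1047 CPM in LPS mice. Every LPS library lay above every CTL library of its population, by a wide margin. In the tdT- CTL libraries of mice 174 and 179 and in the tdT+ library of mouse 174 the gene was at the floor. The log2 fold change was 4.40 ± 1.16 in tdT- (SE, n = 5 per group, adjusted p = 0.0145) and 6.22 ± 1.26 in tdT+ dCAMs (adjusted p = 0.00268), 21.1-fold and 74.4-fold. In tdT- dCAMs the call was lost with limma-voom and sample quality weights (adjusted p = 0.22) and with the 10 libraries of the comparison alone (adjusted p = 0.0579), and the value was 4.39 in the latter.

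Clec4d encodes MCL, also called Dectin-3, which pairs with Mincle and brings it to the cell surface. It lies on the plus strand of chromosome 6 (GRCm38, 123262111 to 123275265), and its start site is at -27.8 kb from that of Clec4e. Clec4d stood at 0.152, 10.4, 0, 17.1 and 0 CPM in tdT- CTL and at 254.7, 358.7, 338.3, 264.6 and 357.0 CPM in tdT- LPS libraries. The values were 5.84, 0, 5.07, 13.7 and 6.75 CPM in tdT+ CTL and 584.2, 307.0, 402.1, 291.4 and 528.3 CPM in tdT+ LPS libraries. As for Clec4e, the groups were far apart, and 3 tdT- CTL libraries and 1 tdT+ CTL library were at the floor. The log2 fold change was 5.82 ± 1.23 in tdT- (adjusted p = 0.00283) and 6.07 ± 1.24 in tdT+ dCAMs (adjusted p = 0.00291). With quality weights the call in tdT- dCAMs was lost (adjusted p = 0.0667).

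The sequences before the start sites of the pair that rose are shown because the genes stand next to each other and moved together. They are the 250 bases upstream of the RefSeq start site on GRCm38.p6, for Clec4e at chr6:123289872-123290121 (minus strand) and for Clec4d at chr6:123261857-123262106 (plus strand). Capitals mark matches to the C/EBP motif TTGCNNAA or to the TATA motif TATAAA on either strand.
Clec4e: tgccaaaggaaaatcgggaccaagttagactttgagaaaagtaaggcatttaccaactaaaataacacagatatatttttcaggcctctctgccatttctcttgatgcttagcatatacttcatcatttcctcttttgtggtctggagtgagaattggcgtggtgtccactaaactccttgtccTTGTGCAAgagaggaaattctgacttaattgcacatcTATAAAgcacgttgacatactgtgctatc
Clec4d: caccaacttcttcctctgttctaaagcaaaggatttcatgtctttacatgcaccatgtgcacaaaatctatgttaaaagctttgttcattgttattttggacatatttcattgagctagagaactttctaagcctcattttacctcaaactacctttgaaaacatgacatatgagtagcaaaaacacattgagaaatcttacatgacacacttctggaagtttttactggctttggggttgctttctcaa
Motifs were searched in windows of 300 bases, which add the 50 bases after the start site. The C/EBP letters stood in 10.8% and the TATA letters in 13.6% of the 32851 mouse windows. The Clec4e window held a C/EBP match whose first base is 66 bases before the start site, and a TATA match whose first base is 29 bases before it. The Clec4d window held neither, but had a match to the interferon-stimulated response element at the start site, which 3.44% of all windows hold. A match is a description of the letters and not of a bound site.

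Clec4n and Clec7a encode Dectin-2 and Dectin-1, the receptors of fungal mannans and beta-glucans. Clec4n lies between the rest of the Clec4 genes and the pair described above, on the plus strand of chromosome 6 (GRCm38, 123229843 to 123247021), with its start site at -60.0 kb from that of Clec4e. It stood at 25.0, 242.5, 303.7, 220.9 and 239.7 CPM in tdT- CTL and at 63.8, 60.7, 83.6, 41.4 and 61.2 CPM in tdT- LPS libraries. In tdT+ dCAMs it stood at 320.5, 330.7, 300.4, 400.3 and 322.5 CPM in CTL and at 88.5, 44.2, 78.3, 64.0 and 78.9 CPM in LPS libraries. In tdT+ dCAMs the groups were separate, whereas in tdT- dCAMs the CTL library of mouse 174 lay below all LPS libraries and the other 4 lay above them. The log2 fold change was -1.73 ± 0.41 in tdT- (adjusted p = 0.00645) and -2.24 ± 0.41 in tdT+ dCAMs (adjusted p = 0.00102). In tdT- dCAMs the call was lost with the libraries of the comparison alone (adjusted p = 0.0871).

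Clec7a lies on the minus strand of chromosome 6 (GRCm38, 129461591 to 129472779) and is annotated there as a polymorphic pseudogene, a gene that is intact in some strains. It stood at 567.9, 198.8, 369.7, 250.6 and 220.5 CPM in tdT- CTL and at 31.6, 15.3, 33.9, 32.9 and 20.7 CPM in tdT- LPS libraries. In tdT+ dCAMs the values were 247.6, 131.1, 293.3, 252.1 and 178.2 CPM in CTL and 7.47, 6.68, 13.8, 29.2 and 13.3 CPM in LPS libraries. No LPS library reached the lowest CTL library in either population. The log2 fold change was -3.58 ± 0.43 (adjusted p = 8.8e-06) in tdT- and -3.97 ± 0.44 (adjusted p = 2.548e-06) in tdT+ dCAMs, 12.0-fold and 15.6-fold lower. It was the largest fall among the receptors in tdT+ dCAMs.

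Clec10a encodes MGL1, a lectin for terminal galactose and N-acetylgalactosamine and a common marker of alternatively activated macrophages. It lies on chromosome 11 (GRCm38, 70156197 to 70170834), away from the others, and 10.6% of its exonic 50-base words also occur in the neighboring paralog Mgl2, so that reads in these stretches could be counted for either gene. Clec10a stood at 301.0, 405.5, 460.1, 591.8 and 190.9 CPM in tdT- CTL and at 42.4, 28.0, 25.6, 38.3 and 31.4 CPM in tdT- LPS libraries. In tdT+ dCAMs it stood at 358.6, 525.8, 360.0, 357.4 and 413.7 CPM in CTL and at 97.7, 43.6, 40.5, 37.3 and 62.1 CPM in LPS libraries. Both populations showed groups without overlap. The log2 fold change was -3.56 ± 0.33 (adjusted p = 2.184e-07) in tdT- and -2.84 ± 0.32 (adjusted p = 2.783e-06) in tdT+ dCAMs. Mgl2 itself fell from 1683 to 84.9 CPM (mean, n = 5) in tdT- and from 1677 to 127.2 CPM in tdT+ dCAMs, with log2 fold changes of -4.31 ± 0.40 and -3.72 ± 0.39.

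Clec12a encodes MICL, an inhibitory receptor for uric acid crystals and dead cells that recruits phosphatases. On chromosome 6 it spans 129342691 to 129365303 (GRCm38, plus strand), a short distance from Clec7a. It stood at 810.4, 339.3, 789.2, 1013 and 588.9 CPM in tdT- CTL and at 107.4, 62.9, 153.4, 163.4 and 127.5 CPM in tdT- LPS libraries. In tdT+ dCAMs it stood at 421.0, 393.5, 498.6, 527.9 and 437.8 CPM in CTL and at 62.9, 54.6, 98.3, 103.0 and 69.8 CPM in LPS libraries. The groups did not overlap in either population, and the fall was of like size in both, with log2 fold changes of -2.53 ± 0.29 (adjusted p = 5.091e-06) and -2.55 ± 0.29 (adjusted p = 4.03e-06). For Clec7a, Clec10a and Clec12a the call held in both populations under each of the 20 alternatives run.

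Upstream sequence of receptors that fell is shown for comparison with the pair that rose, in the same form, for Clec12a at chr6:129349994-129350243 (plus strand) and for Clec7a at chr6:129472780-129473029 (minus strand, the first of 2 RefSeq windows). The RefSeq start site of Clec12a lies inside the gene span given above.
Clec12a: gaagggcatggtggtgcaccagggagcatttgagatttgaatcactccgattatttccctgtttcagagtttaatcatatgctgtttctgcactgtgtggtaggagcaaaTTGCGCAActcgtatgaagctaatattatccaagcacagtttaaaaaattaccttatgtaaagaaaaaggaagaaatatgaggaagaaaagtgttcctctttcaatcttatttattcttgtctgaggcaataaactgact
Clec7a: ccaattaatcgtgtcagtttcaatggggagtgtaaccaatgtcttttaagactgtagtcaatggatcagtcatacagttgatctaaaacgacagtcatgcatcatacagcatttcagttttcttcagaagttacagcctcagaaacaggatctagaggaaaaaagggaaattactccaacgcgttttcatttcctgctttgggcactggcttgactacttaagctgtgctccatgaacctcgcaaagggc
The Clec12a window held a C/EBP match that reads the same on both strands and begins 140 bases before the start site. The Clec7a windows held no C/EBP match, and the first held a TATA match 42 bases after the start site, outside the bases shown. The TATA letters (13.6% of all windows) were in 4 of the 10 receptor windows, those of Clec4e, Clec4a2, Clec5a and Clec7a. Among the 10 windows of 8 receptors, 2 held a C/EBP match, that of Clec4e, which rose, and that of Clec12a, which fell. The PU.1 letters GAGGAAGT (3.2% of all windows) and the kappaB motif (4.51%) were in 0 of the 10 windows, and the AP-1 letters TGANTCA (7.81%) were in those of Clec4a2 and Clec12a.

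Clec4a1, Clec4a2 and Clec4a3 belong to the dendritic cell immunoreceptors, of which Clec4a2 carries an inhibitory cytoplasmic motif. In the same cluster of chromosome 6 their start sites are at -368.0 kb (Clec4a1), -337.4 kb (Clec4a3) and -183.4 kb (Clec4a2) from that of Clec4e (GRCm38, starts at 122921848 for Clec4a1, 122952515 for Clec4a3 and 123106428 for Clec4a2). Clec4a2 stood at 191.0, 271.4, 441.0, 347.2 and 290.9 CPM in tdT- CTL and at 152.0, 138.2, 161.9, 215.3 and 82.8 CPM in tdT- LPS libraries. In tdT+ dCAMs it stood at 221.7, 223.0, 256.4, 295.7 and 235.2 CPM in CTL and at 195.0, 121.4, 182.9, 190.8 and 78.4 CPM in LPS libraries. The tdT- groups overlapped at 1 library on each side, and the tdT+ groups did not overlap. The log2 fold change was -1.04 ± 0.29 (adjusted p = 0.0189) in tdT- and -0.68 ± 0.28 (adjusted p = 0.183) in tdT+ dCAMs. The call in tdT- dCAMs sat at the threshold of fold and was lost when mouse 177, 178, 54, 56 or 61 was left out, with log2 fold changes of -1.20 to -0.88 over the 10 mice left out in turn. Of the exonic 50-base words of Clec4a2, 8.19% also occur in other genes, among them Clec4a4 and Clec4b1.

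Clec4a1 was measured well above the floor in every library. In tdT- dCAMs it ranged from 165.7 to 298.3 CPM under CTL and from 372.4 to 449.8 under LPS, and in tdT+ dCAMs from 213.9 to 254.2 under CTL and from 367.8 to 462.3 under LPS. All LPS libraries thus lay above all CTL libraries. The differences were 0.75 ± 0.17 (adjusted p = 0.0048) and 0.87 ± 0.17 (adjusted p = 0.00197) on the log2 scale, 1.69-fold and 1.83-fold, which is under the fold that a call required. Clec4a3 ranged from 139.6 to 588.0 CPM in tdT- CTL and from 358.6 to 541.7 in tdT- LPS libraries, and from 253.6 to 386.4 in tdT+ CTL and from 262.6 to 504.7 in tdT+ LPS libraries. Its groups overlapped in both populations, with log2 differences of 0.37 ± 0.29 (95% interval -0.24 to 0.97, adjusted p = 0.409) and 0.32 ± 0.29 (-0.29 to 0.92, adjusted p = 0.65).

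Clec5a encodes MDL-1, an activating receptor that signals through DAP12. It lies on chromosome 6 far from the rest (GRCm38, 40574894 to 40585821, minus strand). Clec5a stood at 1.52, 58.9, 34.4, 45.1 and 232.2 CPM in tdT- CTL and at 99.6, 128.6, 238.4, 103.0 and 143.1 CPM in tdT- LPS libraries. It ranged from 65.7 to 113.1 CPM in tdT+ CTL and from 91.1 to 178.8 CPM in tdT+ LPS libraries. Mouse 174 was the lowest and mouse 179 nearly the highest of all tdT- libraries, and the groups overlapped in both populations. The log2 difference was 0.94 ± 0.65 (95% interval -0.43 to 2.31, adjusted p = 0.342) in tdT- and 0.48 ± 0.64 (-0.88 to 1.84, adjusted p = 0.809) in tdT+ dCAMs. Without mouse 179 Clec5a was called higher in tdT- dCAMs (log2 fold change 2.03, adjusted p = 0.0268), and without the tdT- CTL libraries of mice 174 and 179 it was as well (1.61, adjusted p = 0.00157).

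**Figure D2:**
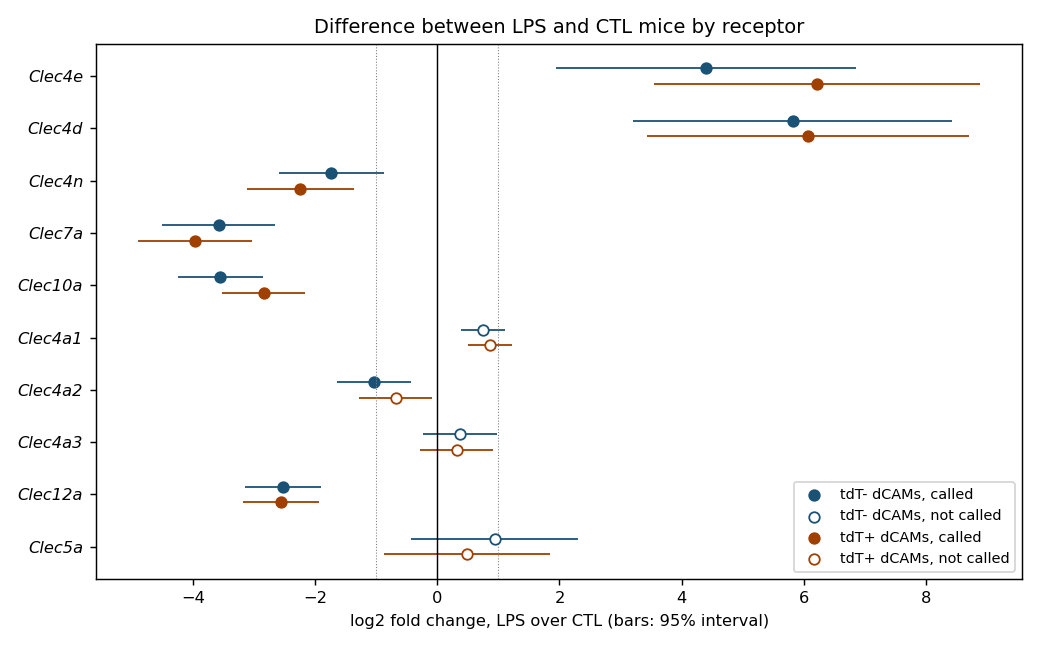
Log2 fold change of LPS over CTL for each receptor in tdT- and tdT+ dCAMs, with 95% intervals from the edgeR fit of 5 against 5 libraries. Filled points were called, open points were not, and dotted lines mark a log2 fold change of 1 in either direction; Clec4e and Clec4d lie far to the right of the line at 0, with the widest intervals, and 4 receptors have filled points to the left in both populations.

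Within the Clec4 cluster of chromosome 6, genes in sequence thus differed in direction. Clec4e and Clec4d at its end rose in both populations and the next gene, Clec4n, fell in both. Clec4a2 fell in tdT- dCAMs (-1.04) and was not called in tdT+ dCAMs (-0.68). At the opposite end, Clec4a1 and Clec4a3 were not called, and the value of Clec4a3 in tdT- dCAMs went from 0.37 to -0.02 without the tdT- CTL libraries of mice 174 and 179. Clec4b1, which is not among the 10 receptors and lies at -239.9 kb from Clec4e, fell from 184.5 ± 104.0 to 4.08 ± 2.11 CPM (SD, n = 5) in tdT- dCAMs and from 73.8 to 2.89 CPM in tdT+ dCAMs. Its log2 fold changes were -5.50 ± 0.63 (adjusted p = 4.138e-06) and -4.67 ± 0.61 (adjusted p = 1.988e-05). Clec4b2 had 0 counts in the 20 libraries, and Clec4a4 stayed near 2.08 CPM or lower in the mean of each group.

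**Figure D3:**
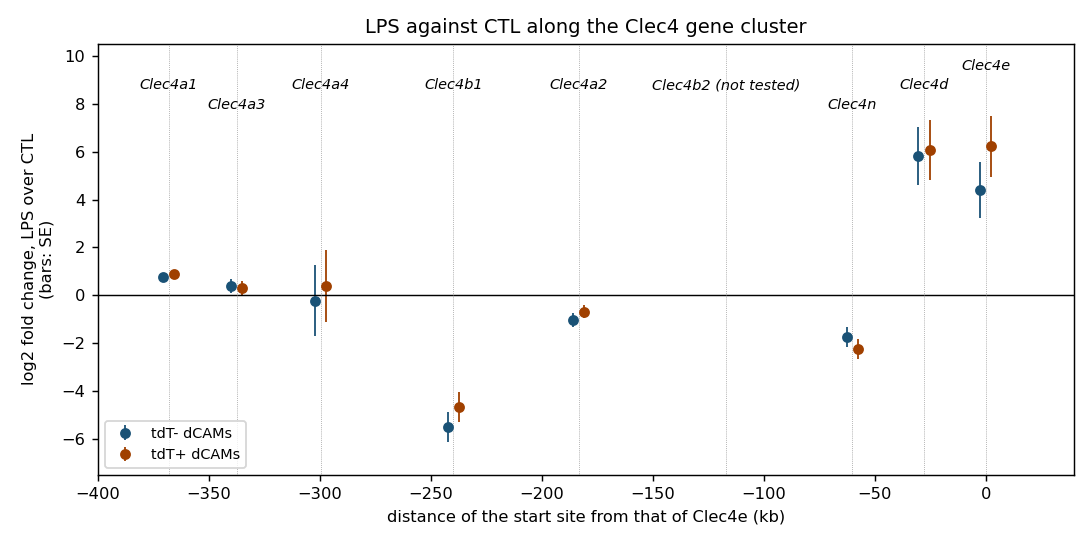
Log2 fold change of LPS over CTL (bars are the SE, n = 5 per group) for the genes of the Clec4 cluster, placed by the distance of their start sites from that of Clec4e in kb. Clec4e and Clec4d at 0 and -27.8 kb lie above 0 in both populations, Clec4n at -60.0 kb and Clec4b1 at -239.9 kb lie below, and Clec4b2 was not tested.

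Levels of different genes can be compared only per length, here as CPM per kb of annotated exon. Summed over the 10 receptors, tdT- dCAMs held 1071 ± 260.5 CPM per kb under CTL and 1106 ± 92.9 under LPS, and tdT+ dCAMs held 1035 ± 71.5 and 1155 ± 148.3 (SD, n = 5). These sums differed by less than their spread, whereas their make-up differed. Clec4e and Clec4d together held 0.895% ± 0.914 of the sum in tdT- CTL and 31.1% ± 6.11 in tdT- LPS libraries, and 0.579% ± 0.424 and 36.4% ± 7.89 in tdT+ libraries. Clec4n and Clec7a together went from 25.4% ± 3.59 to 4.86% ± 0.787 in tdT- and from 30.9% ± 3.32 to 4.74% ± 0.716 in tdT+ libraries. The 3 dendritic cell immunoreceptors held the largest part in the mean of each group, 46.7% ± 8.03 and 44.7% ± 2.2 in tdT- and tdT+ CTL, and 57.7% ± 6.73 and 52.9% ± 8.14 in tdT- and tdT+ LPS libraries. In the tdT+ LPS library of mouse 61 they held 40.8%, less than the 47.9% of Clec4e and Clec4d.

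**Figure D4:**
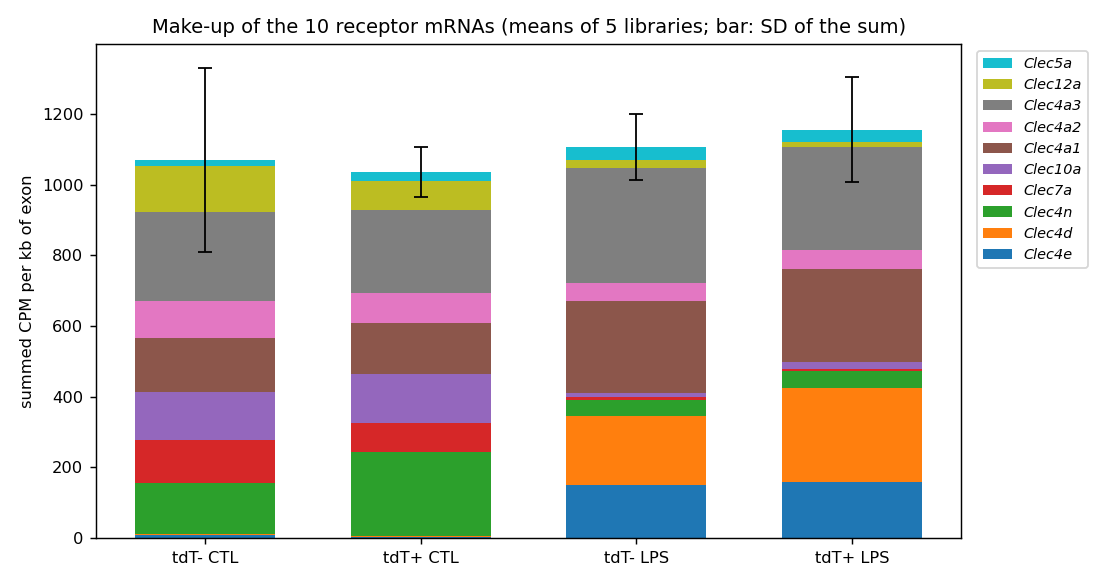
Summed level of the 10 receptor mRNAs as CPM per kb of exon, stacked by gene from the means of 5 libraries per group. The error bar is the SD of the sum; the sums lie between 1035 and 1155, while the parts of Clec4e and Clec4d are visible only in the LPS groups.

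In the order of mean levels per kb, Clec4a3 was first without a gap beyond the spread in tdT- CTL (251.6 ± 130.9), tdT- LPS (324.2 ± 54.8) and tdT+ LPS libraries (291.9 ± 77.7), and Clec4n (235.8 ± 26.9) was level with Clec4a3 (234.7 ± 37.1) at the top of tdT+ CTL libraries. In tdT- CTL libraries the 7 highest receptors ran from 251.6 to 105.4 CPM per kb and no neighbors differed by more than the sum of their SDs. A gap came after Clec4a2, below which Clec5a, Clec4e and Clec4d stood at 19.4, 7.03 and 3.46 CPM per kb. In tdT+ CTL libraries gaps came between Clec4a3 and Clec4a1, between Clec10a (139.1) and Clec4a2 (84.2), between Clec12a (82.4) and Clec5a (25.1), and below Clec5a. In tdT- LPS libraries Clec4d (196.8) and Clec4e (148.7) came next after Clec4a1 and did not differ beyond their spread, and in tdT+ LPS libraries Clec4d (264.3) was level with Clec4a1 (263.5). The lowest means were those of Clec7a and Clec10a in tdT- LPS libraries (10.2 and 11.4), which did not differ beyond their spread, and that of Clec7a in tdT+ LPS libraries (5.35).

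The comparison of tdT+ with tdT- dCAMs of the same dura asks whether the labeled cells differ from the unlabeled ones. None of the 10 receptors was called in CTL mice, where 3.01% of all genes were higher and 1.27% lower in tdT+ dCAMs by edgeR. DESeq2 and limma-voom called 0 as well. In the edgeR fit 1 receptor had an unadjusted p under 0.05, namely Clec12a, with a log2 difference of -0.64 ± 0.28 (adjusted p = 0.176). No receptor had the same sign in all 5 CTL mice, where 6.45% of all genes were higher and 3.74% lower in each mouse. For Clec4e the difference was -1.72 ± 1.04 (95% interval -3.93 to 0.49) and for Clec5a 0.37 ± 0.64. Without the tdT- CTL libraries of mice 174 and 179 these became -2.44 (adjusted p = 0.0481) and 1.07 (adjusted p = 0.0409), and both were called.

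In LPS mice 0% of all genes were higher and 0.0301% lower in tdT+ dCAMs, and 0 receptors were called by edgeR, DESeq2 or limma-voom. In the edgeR fit 3 had an unadjusted p under 0.05, with log2 differences of -0.93 ± 0.40 for Clec7a, 0.76 ± 0.30 for Clec10a and -0.66 ± 0.28 for Clec12a, each with an adjusted p = 0.913. Over the 22 alternatives the lowest adjusted p was 0.153 for Clec7a, 0.153 for Clec10a and 0.0390 for Clec12a, each with the libraries of the comparison alone and mouse as a block. That fit was added after seeing the data, and Clec12a stayed under the fold of a call in all of them (-0.72 to -0.57). Per mouse, Clec12a was 0.20 to 0.87 lower in tdT+ dCAMs on the log2 scale in 5 of 5 LPS mice. Clec7a was lower in 5 of 5 mice, with differences from -2.05 to -0.17, and Clec4e was higher in 5 of 5, by 0.03 to 0.29. Over all genes 5.39% were higher and 4.73% lower in each of the 5 mice, beside 1 higher and 2 lower among the 10 receptors. For Clec4e these differences were small next to the spread between mice, from 448.5 to 1115 CPM.

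**Figure D5:**
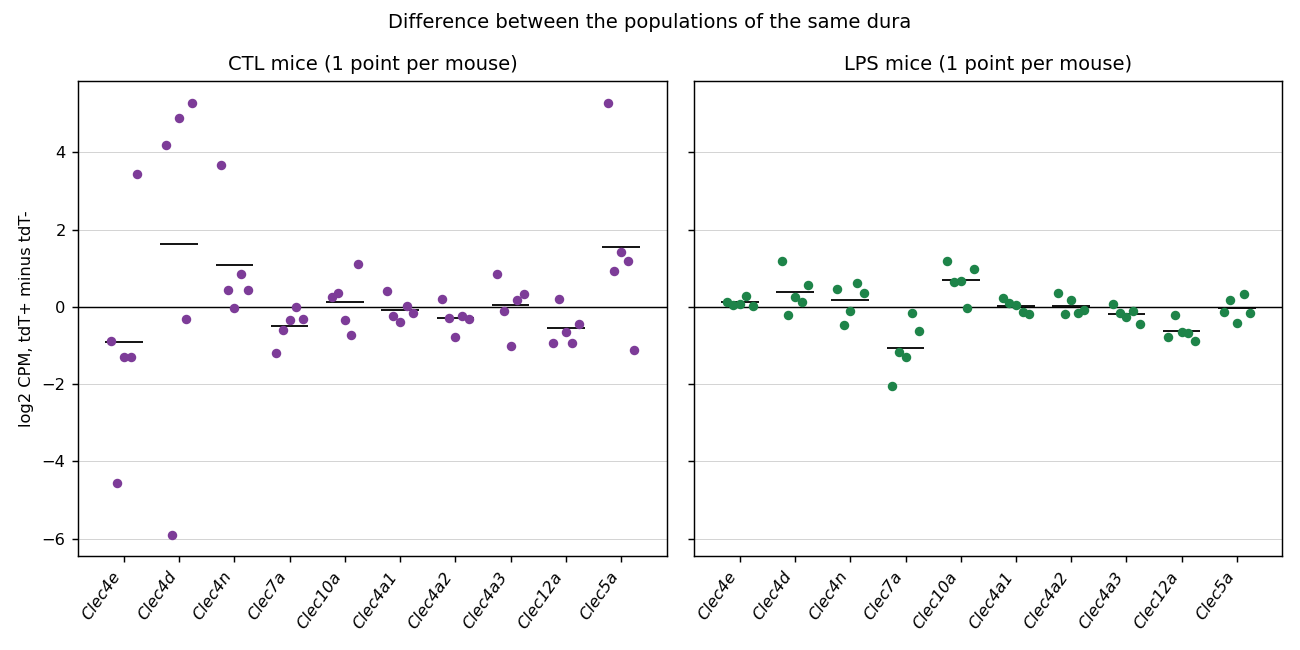
Difference of log2 CPM between the tdT+ and the tdT- library of each mouse, with 1 point per mouse and lines at the mean of 5. In CTL mice Clec4e and Clec4d, each at the floor in some libraries, spread from -5.90 to 5.29, and in LPS mice all receptors lie within -2.05 to 1.20.

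The effect of LPS was not shown to differ between the populations for any receptor. In edgeR's test of the difference 0 of 10 were called and 0 had an unadjusted p under 0.05, and DESeq2 and limma-voom called 0, where 0.0902% of all genes had a higher and 1.17% a lower effect in tdT+ dCAMs. How much difference the data leave room for varied among the genes. The difference (tdT+ minus tdT-, log2) was 0.12 for Clec4a1 with a 95% interval of -0.39 to 0.62, and -0.03 for Clec12a with -0.86 to 0.81. For Clec10a it was 0.72 (-0.18 to 1.61), and for Clec4e it was 1.82 (-1.23 to 4.86).

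Of the partner chains and kinases that carry the signal, 18 genes were listed. In tdT- dCAMs 2 rose and 0 fell, with a median log2 fold change of 0.12, and in tdT+ dCAMs 3 rose and 0 fell, with a median of 0.12. Among all genes 7.2% rose and 4.27% fell in tdT- dCAMs, and 3.37% rose and 2.52% fell in tdT+ dCAMs. The rises in the list were more frequent than these shares, but they rest on 2 and 3 genes. Fcer1g, the chain used by Mincle, MCL and Dectin-2, rose from 1942 to 4572 CPM in tdT+ dCAMs (log2 fold change 1.24 ± 0.12, adjusted p = 6.3e-07) and went from 2510 to 4641 CPM in tdT- dCAMs (0.89 ± 0.12, adjusted p = 4.172e-05, under the fold of a call). Tyrobp, the chain used by MDL-1, was lower in both, by -0.71 ± 0.18 and -0.67 ± 0.18, without being called. Vav1, a guanine exchange factor downstream of Syk, rose in both (1.29 ± 0.17 and 1.09 ± 0.17), and Lyn, a Src family kinase, rose in tdT+ dCAMs (1.18 ± 0.18) and was not called in tdT- dCAMs (0.77 ± 0.18), where its effect was not shown to differ (adjusted p = 0.575). Cblb, a ubiquitin ligase that restrains these receptors, was at the floor in the 5 tdT- CTL libraries and at 60.2 CPM on average in tdT- LPS libraries, and was called. In tdT+ dCAMs it averaged 15.1 CPM under CTL and 69.7 CPM under LPS and was not called (2.21 ± 0.80, adjusted p = 0.122). Among CTL mice Cblb was also called higher in the tdT+ population (adjusted p = 0.000221), and its LPS effect differed between populations (adjusted p = 0.00267). The tdT- CTL libraries were those with the fewest detected genes, and the part of this in the result was not tested. Syk and Card9 were not called, with log2 differences of 0.07 and -0.74 in tdT- and -0.28 and 0.59 in tdT+ dCAMs.

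Other C-type lectin receptors of the mouse were tested for 35 of 40 genes listed. In tdT- dCAMs 3 rose and 7 fell (median -1.14), where 7.2% of all genes rose and 4.27% fell. In tdT+ dCAMs 0 rose and 5 fell (median -1.40), where 3.37% of all genes rose and 2.52% fell. The falls were thus more frequent in the list than among all genes, and the rises in tdT- dCAMs were near the share. Besides Mgl2 and Clec4b1, Cd209a, a relative of human DC-SIGN, fell from 1228 to 26.8 CPM in tdT- dCAMs (log2 fold change -5.52 ± 0.84, adjusted p = 0.000119). In tdT+ dCAMs it averaged 44.15 CPM under CTL and 17.4 CPM under LPS (-1.34 ± 0.71, adjusted p = 0.315). Among CTL mice it was called lower in tdT+ dCAMs (-4.80 ± 0.81, adjusted p = 0.00129). The difference of effects was called near the threshold (4.17 ± 1.02, adjusted p = 0.0463). The population means were far apart under CTL and at like levels under LPS. The tdT- CTL libraries of Cd209a spread widely (SD 928.7 CPM), and they belong to the group with the fewest detected genes. The part of this in the Cd209a results was not tested. Cd209f (-7.32 ± 1.24 and -7.22 ± 1.23) and Cd209g (-7.43 ± 1.77 and -8.03 ± 1.83) fell in both, to means of 1.11 and 0.897 CPM for Cd209f and of 0.351 and 0.140 CPM for Cd209g. In tdT- CTL libraries they averaged 180.5 ± 181.2 and 63.0 ± 68.6 CPM (SD), each over the floor in 4 of 5. Their LPS and CTL libraries overlapped in tdT- dCAMs and were separate in tdT+ dCAMs. Mrc1, the mannose receptor CD206 by which the cells were gated, fell by -1.14 ± 0.24 in tdT- and -1.40 ± 0.24 in tdT+ dCAMs. The genes that rose in tdT- dCAMs, named after their values were seen, were Ly75, Cd69 and Olr1, with means of 8.45, 33.9 and 11.1 CPM under LPS.

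Genes often induced through Syk and Card9 gave 1 higher and 1 lower of 12 in tdT- dCAMs (median 0.83) and 3 higher and 0 lower in tdT+ dCAMs (median 1.21). In tdT- dCAMs these counts are near the background of 7.2% higher and 4.27% lower. In tdT+ dCAMs the background was 3.37% higher and 2.52% lower, and the 3 of 12 that rose lay above it, on few genes. The neutrophil attractant Cxcl2 rose in both (1.40 ± 0.38 and 1.91 ± 0.38), Il1b (1.21 ± 0.24) and the prostaglandin synthase Ptgs2 (3.57 ± 0.88) rose in tdT+ dCAMs, and Tnf fell in tdT- dCAMs (-1.64 ± 0.36). In the other population the values were 0.46 for Il1b, 1.94 for Ptgs2 and -0.84 for Tnf, not called, and the effects were not shown to differ (adjusted p = 0.318, 0.664 and 0.57). Of 12 regulators linked to the LPS receptor TLR4, 2 rose and 1 fell in tdT- dCAMs (median 0.27) and 1 rose and 1 fell in tdT+ dCAMs (median 0.15). The shares of all genes are those just given, and these counts are too small to set the list apart from them. The coreceptor Cd14 rose in both (1.87 ± 0.20 and 1.98 ± 0.20), and Irf1 fell in both (-1.07 ± 0.26 and -1.35 ± 0.27). Tlr4 rose in tdT- dCAMs (1.56 ± 0.51, adjusted p = 0.0495), where the libraries of LPS and CTL overlapped. It was not called in tdT+ dCAMs (0.08 ± 0.50), without a shown difference of effects (adjusted p = 0.383). Among CTL mice Tlr4 was called higher in tdT+ dCAMs (1.91 ± 0.52, adjusted p = 0.0363), at 154.5 against 41.1 CPM (SD 21.5 and 46.5). The part of the low gene detection of tdT- CTL libraries in this was not tested. Cebpb, a C/EBP factor, was at 729.1 to 1062 CPM in the group means and was not called, with differences of 0.40 ± 0.30 and 0.46 ± 0.30.

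Of 4 endogenous ligands, Sap130 (5.77 ± 0.95) and Lgals9 (1.10 ± 0.25) rose and Hmgb1 (-1.13 ± 0.23) and Anxa1 (-1.71 ± 0.38) fell in tdT- dCAMs, with a median of -0.01, and 0 were called in tdT+ dCAMs (median 0.42). Among all genes 7.2% rose and 4.27% fell in tdT- dCAMs, and 3.37% rose and 2.52% fell in tdT+ dCAMs. Sap130, the nuclear ligand of Mincle, averaged 0.339 CPM under CTL and 19.2 CPM under LPS in tdT- dCAMs, and 11.4 and 20.1 CPM in tdT+ dCAMs. Among CTL mice it was called higher in the tdT+ population (5.02 ± 0.92, adjusted p = 0.00234), and its LPS effect differed between populations (-4.96 ± 1.15, adjusted p = 0.0337). Sap130 was over the floor in only 2 of 5 tdT- CTL libraries, the group with the fewest detected genes. The part of this in both results was not tested. In tdT+ dCAMs Hmgb1 was lower by 0.86 ± 0.23 and Lgals9 higher by 0.87 ± 0.25, with adjusted p of 0.0239 and 0.0392 and a fold under that of a call.

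Markers of other cells moved with the same contrast, in which 7.2% of all genes rose and 4.27% fell in tdT- dCAMs. In tdT+ dCAMs these shares were 3.37% and 2.52%. Summed over 10 border macrophage markers, CPM of the CTL libraries ranged from 6002 to 12250 (tdT-) and from 14460 to 16370 (tdT+), and of the LPS libraries from 5222 to 6259 (tdT-) and from 6670 to 8543 (tdT+), and 6 of 10 fell in tdT- and 5 of 10 in tdT+ dCAMs. Summed over 8 monocyte markers the ranges were 581.7 to 1103, 160.8 to 469.4, 1101 to 1904 and 586.9 to 1297 CPM in the same order of groups. Of these, 2 rose and 1 fell in tdT- dCAMs and 4 rose and 1 fell in tdT+ dCAMs, with Ccr2 falling in both. Summed over 10 neutrophil markers they were 163.6 to 469.3, 510.4 to 687.7, 467.1 to 1139 and 512.5 to 1173 CPM, and 3 rose in tdT- and 2 in tdT+ dCAMs. S100a8 rose in both (8.07 to 291.1 CPM in tdT- and 2.09 to 308.9 CPM in tdT+ dCAMs), as did Mmp8, which was at the floor in all CTL libraries and averaged 98 and 103.4 CPM under LPS. Csf3r rose in tdT- dCAMs (39.0 to 205.3 CPM) and went from 107.1 to 272.1 CPM in tdT+ dCAMs without a call. Retnlg averaged 215.8 CPM in tdT- LPS and 0.302 CPM in tdT+ LPS libraries and was not called. Ly6g and Cxcr2 were at the floor in all CTL and all tdT+ LPS libraries and over it in 1 and 2 of 5 tdT- LPS libraries. The other 4 markers, S100a9, Camp, Ngp and Mmp9, were not called in either population. Of the markers of dendritic cells, 0 rose and 1 fell in each population, and of those of B cells, T or NK cells and mast cells, 1, 1 and 0 rose in tdT- dCAMs and 0 were called in tdT+ dCAMs. Fibroblast and endothelial markers summed to 10.6 to 3547 CPM in tdT- CTL libraries and to 71.0 to 325.7 CPM in the others, with 1 lower in tdT- and 1 higher in tdT+ dCAMs. The 7 dendritic cell markers summed to 33.4 to 573.4, 194.5 to 339.8, 248.6 to 639.9 and 12.0 to 37.2 CPM in the order of groups above. Different genes made up these sums. Siglech, which fell in both populations, averaged 260.6 CPM in tdT+ CTL libraries, and Ccr7 averaged 401.1 CPM in tdT- LPS libraries. Ccr7 had higher means under LPS in both populations, and Flt3, Zbtb46 and Batf3 had lower ones, without calls. The part of these other cell types in the receptor levels was not tested.

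As a description of likeness, the gene with the smallest mean absolute difference in centered log2 CPM over the 20 libraries was sought, out of 5822 genes whose log2 CPM averaged 4 or more. For Clec4e it was Il6 (1.10), for Clec4d it was the formyl peptide receptor Fpr1 (0.92), and Clec4e and Clec4d were 1.32 apart. Clec7a was nearest to H2-DMb1 (0.39), a chaperone of MHC class II loading, Clec10a to the Fc receptor Fcgrt (0.42), and Clec12a to the adaptor Blnk (0.35). For Clec4n it was Blvrb (0.33) and for Clec5a Smarcb1 (0.38). Clec4a1, Clec4a2 and Clec4a3 were nearest to Capza2 (0.18), Nop10 (0.24) and Sdcbp (0.21). Among the receptors, Clec7a and Clec12a were nearest to each other (0.66), as were Clec4a1 and Clec4a3 (0.33).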

How the data were processed

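RNA of sorted dural macrophages was amplified by a low-input SMART-Seq protocol, which keeps no strand and uses no molecular identifiers. The authors deposited raw counts per gene, made per the processing notes with bcl2fastq 2.20, STAR 2.7.11a and featureCounts 2.0.6, and DESeq2 1.46.0 is also named there. More than 1 genome build is named, and which one the counts rest on is not given in the sources used here, so GRCm38 coordinates, exon lengths and RefSeq GRCm38.p6 promoter windows serve only to locate and describe genes. Of the 10 receptors 8 had promoter windows, and Clec4n and Clec10a had none in the table.

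Samples were grouped by the labels. Genes with a total of at least 10 counts entered a joint quasi-likelihood fit of 20 libraries in edgeR 4.0.16 (R 4.3.3) with TMM scaling, tested on simulated data first. The simulated libraries spread less than the real ones, so that test says little about how the fit behaves on these data. Fold changes are between groups of 5 mice, p-values are adjusted over all genes, and the library totals limit precision. Levels at or under 3 counts were treated as the floor, which covers counting error only. The tdT+ and tdT- libraries of a mouse are paired by the animal: deviations of the pair from their group means correlated at -0.005 to 0.046 in CTL and 0.228 to 0.449 in LPS mice. Alternatives were DESeq2 1.42.0, limma 3.58.1 voom, other scaling, filters, thinning, the replicate block, a covariate from the title letters and leaving out libraries. Genes named were the 10 receptors and called or role-defining members of the lists. The receptors and lists were chosen with earlier results of these data known.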

Additional observations from a re-analysis of the deposited data

Results flagged for a closer look

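In 2 of the 40 groups of 5 libraries, 1 library stood apart from the others by Dixon's criterion, which chance alone meets in some groups. Clec4a1 was at 254.2 CPM in the tdT+ CTL library of mouse 175, and the other 4 libraries were at 213.9 to 219.6 CPM. Clec5a was at 232.2 CPM in the tdT- CTL library of mouse 179, and the other 4 were at 1.52 to 58.9 CPM. The critical value is met by about 0.05 of groups by chance. A difference of the LPS effect between the populations was called for 0 of the 10 receptors, beside 0.0902% (higher in tdT+) and 1.17% (lower) of all genes, with 95% intervals as wide as -1.23 to 4.86 for Clec4e.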

How the results depend on the processing

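Of 1040 comparisons of a receptor value with an alternative, 991 kept direction and side of the threshold, 11 lost a call, 5 gained one and 33 changed sign. The cause was not tested. In tdT- dCAMs 7 receptors were called for LPS, but 4 with limma-voom quality weights (Clec4e 5.47, Clec4d 8.21 and Clec4a2 -1.08 lost) and 4 with the libraries of the comparison alone (Clec4e 4.39, Clec4n -1.74 and Clec4a2 -1.05 lost). Leaving out mice gave -1.20 to -0.88 for Clec4a2 and 0.59 to 2.03 for Clec5a. Without the tdT- CTL libraries of mice 174 and 179, an alternative chosen after seeing the data, 2 receptors were called between populations in CTL mice, and signs changed for Clec4a3 under LPS in tdT- dCAMs (-0.02), for Clec4d (-0.54) and Clec10a (-0.26) between populations in CTL mice, and for Clec4a3 in the difference of effects (0.31). With quality weights Clec10a (-0.03, CTL populations), Clec4a2 (-0.04, LPS populations) and Clec4d (-1.25, difference) changed sign.

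With mouse as a replicate block, Clec5a was called in tdT- dCAMs (1.99). Signs changed with the block for Clec4a3 in CTL populations (0.06 in the joint fit and 0.06 with these libraries alone), for Clec4a1 (0) and Clec4a2 (-0.05) in LPS populations, and for Clec4d in the difference (-1.57 with an estimated correlation and -2.04 with a fixed effect). The block changed no other receptor call.

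Signs also changed when 1 mouse was left out. The ranges in CTL populations were -0.17 to 1.03 for Clec4d, -0.20 to 0.05 for Clec4a1, -0.23 to 0.22 for Clec4a3 and -0.13 to 0.35 for Clec10a. In LPS populations they were -0.02 to 0.07 for Clec4a1, -0.05 to 0.11 for Clec4a2 and -0.17 to 0.06 for Clec5a. In the difference they were -0.38 to 0.07 for Clec4a3, -0.58 to 0.60 for Clec4d, -0.02 to 0.21 for Clec4a1 and -0.20 to 0.02 for Clec12a.

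Counts over all genes moved more. For LPS in tdT- dCAMs 1907 became 4523 with the block and 891 with the comparison alone. In tdT+ dCAMs 979 became 1545 (DESeq2), 3155 (quality weights), 1571 (block), 2262 (alone) and 1574 (without both libraries). In CTL populations 712 became 1644, 369, 2245, 7 and 1183 in the same order, 3 alone with the block, and 478 to 1352 with mice left out. In LPS populations 5 became 60, 137, 22, 39 and 10 in that order, 3 with a fixed block, 85 alone with the block, 3 with the title letter, and 1 to 6 with mice left out. In the difference 209 became 744 (DESeq2), 619 (block), 83 (fixed block), 408 (without both libraries) and 63 to 640 with mice left out.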
